A study of Mus musculus with 32 samples.

Results

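Livers of 2 knockout mouse lines were set directly against each other, 4 livers lacking the gene tRNA-Phe-GAA-1-1 and 3 livers lacking the gene tRNA-Phe-GAA-2-1. These 7 libraries were chosen by their tissue and genotype labels out of 32 in the series, and no wild-type liver entered the comparison. All mice were male, on a C57BL/6N background, and homozygous for a small deletion inside 1 of the genes encoding the phenylalanine tRNA, made with CRISPR-Cas9 and carried as 1 bred line per gene. The labels give no age, and the mice of the study were stated to be 10 weeks old. The lines are called Phe11 and Phe21. Phe11 replicates 4 and 6 and Phe21 replicates 7, 8 and 9 belonged to batch 1 by their labels, and Phe11 replicates 20 and 21 to batch 2. Chromatin accessibility was measured by ATAC-seq, which uses an enzyme that inserts sequencing adapters into accessible DNA of nuclei, and the values analysed are those at tRNA loci.

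Transfer RNA genes are transcribed by RNA polymerase III from promoter elements that lie within the gene, the A box and the B box. Each amino acid is served by several genes, and genes with the same anticodon but a different body are called isodecoders. In the locus names the first number after the anticodon gives the isodecoder and the last number the gene copy, so that tRNA-Phe-GAA-1-1 to 1-5 share a single mature sequence. An open, nucleosome-free locus is commonly read as a sign that the gene can be transcribed, although accessibility is not a measure of the tRNA itself.

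The 7 tRNA-Phe genes were located by matching the guide RNA of the study to GRCm39 by sequence. They are shown because the lines differ by which of these near-identical copies is broken. The 5 genes of isodecoder 1 had the same 73 bases. In the deleted gene the 20 bases missing in the Phe11 line are in capitals, read from the genotyping of the line.
tRNA-Phe-GAA-1-1: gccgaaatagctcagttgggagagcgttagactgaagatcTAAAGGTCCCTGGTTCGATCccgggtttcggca
The missing bases ran from position 41 to 60 of the gene, counted from 1 at its 5′ end, and took 9 of the 10 bases GGTTCGATCC at positions 52 to 61, which match the B box motif GGTTCGANNC on the gene strand. Searched as this exact string, with N for any base, the motif was present in 6 of the 7 genes. A looser form of the motif was not searched. Below, capitals mark the bases of isodecoders 2 and 3 that differ from isodecoder 1.
tRNA-Phe-GAA-2-1: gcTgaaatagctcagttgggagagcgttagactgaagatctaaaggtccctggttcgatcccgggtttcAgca
tRNA-Phe-GAA-3-1: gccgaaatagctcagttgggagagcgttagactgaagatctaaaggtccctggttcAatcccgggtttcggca
The substitutions relative to isodecoder 1 were C3T and G70A in tRNA-Phe-GAA-2-1, bases that face each other in the acceptor stem, and G57A in tRNA-Phe-GAA-3-1, which lies within the B box motif. The guide was the same for all 7 genes, and its target with the adjacent PAM was found in each of them.
guide: GCGTTAGACTGAAGATCTAA
The DNA around the copies is far less alike. Of the 50 bases before the gene, 5 to 15 were identical to those before tRNA-Phe-GAA-1-1 in the other 6 genes, and reads that reach these flanks are what separates the copies in the counts. RefSeq places the gene paired here with tRNA-Phe-GAA-1-1 at chr5:125406055-125406127, minus strand, and the gene paired with tRNA-Phe-GAA-2-1 at chr19:12008545-12008617, plus strand, both on GRCm38.p6 and each a tRNA gene of a single exon. RefSeq uses other names for tRNA genes, so the copies were paired by chromosome and order.

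Between 9364 and 23754 reads per library fell on the tRNA loci, with totals of 9364, 9723, 11184 and 23754 in Phe11 replicates 4, 6, 20 and 21 and of 18575, 14245 and 11278 in Phe21 replicates 7, 8 and 9. A read here is a sequenced read pair, recovered as a whole number from the deposited values, and a scaled read is that number after 1 common size factor per library was set over the 7 livers. tRNA-Arg-TCT-4-1, a copy known for expression in the nervous system, held 0.00538% to 0.0320% of the reads in the 7 livers and 0.807% to 0.981% in the 7 brains of the same lines, as the tissue labels say. The livers separated by line. Chi-square per degree of freedom over the loci was 2.77 to 4.00 in the 12 pairs of 1 Phe11 and 1 Phe21 liver and 0.764 to 1.45 in the 9 pairs within a line. The counts of Phe11 replicates 6 and 20 were the closest of the 9 pairs within a line, at 0.764 per degree of freedom. The lower-tail p for closeness was 0.00258 by chi-square, not adjusted for picking the closest pair. Phe21 replicates 7 and 8 agreed within sampling noise (0.943, p = 0.724 by chi-square). Replicate 9 differed from replicate 7 (1.22, p = 0.0122 by chi-square over 227 loci) and less clearly from replicate 8 (p = 0.0587 by chi-square). Such values grow with depth, which was greatest in Phe11 replicate 21. The labels give all 7 as separate samples, so tests use 4 against 3 livers. For liver, however, the study speaks of 3 mice per line, fewer than the 4 Phe11 libraries, so whether these are 4 separate mice is not known. Agreement within sampling noise does not show that a pair is 1 sample. The tests were also run with each pair averaged, and a mean ± SD with n = 3 for Phe11 and n = 2 for Phe21 has the pairs averaged. No source used here ties each library to an animal, so p-values measure the spread between these libraries.

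**Figure D1:**
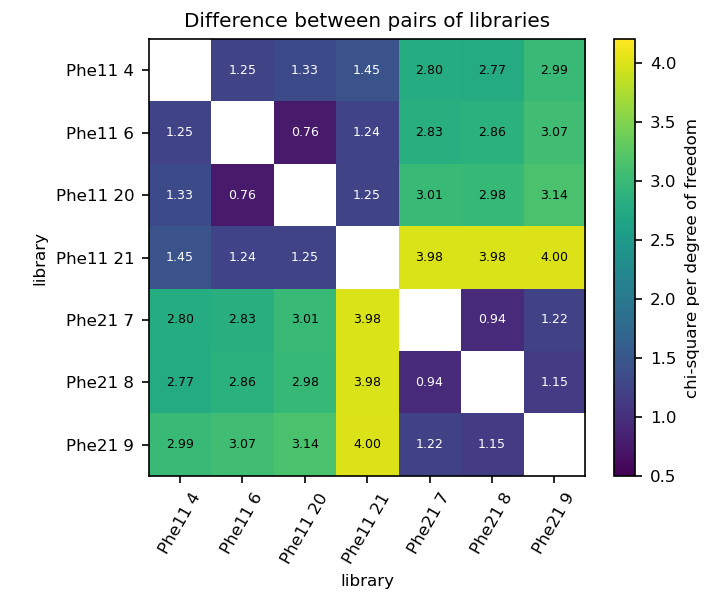
Chi-square per degree of freedom between the recovered reads of each pair of the 7 livers, as numbers and colour, with libraries on both axes. The pairs between Phe11 and Phe21 lie at 2.77 or above and the pairs within a line at 1.45 or below.

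The first question was whether each deletion shows at its own locus. tRNA-Phe-GAA-1-1 was at 4.01, 4.00, 6.86 and 1.61 scaled reads in Phe11 replicates 4, 6, 20 and 21 and at 42.1, 39.3 and 39.2 in Phe21 replicates 7, 8 and 9. The groups were far apart, with 3, 3, 6 and 3 reads in the Phe11 livers. The counted region holds the gene and its flanks, and the deletion removes 20 bases of it. Over the 4 and 3 livers the means were 4.12 ± 2.15 (SD, n = 4) and 40.2 ± 1.65 (SD, n = 3), a difference of -3.11 on the log2(scaled reads + 1) scale (SE 0.36), with an adjusted p of 8.86e-16 in limma. With the close pairs averaged the means were 3.68 ± 1.93 (SD, n = 3) and 39.9 ± 1.10 (SD, n = 2), and the difference was -3.22 (limma adjusted p = 5.88e-05). With a pseudocount of 10 in place of 1 the difference was -1.84. Over all reads the level in Phe11 was 8.75% of that in Phe21 (95% exact interval of the counts 4.76% to 15.0%). The exact two-sided permutation test over the 7 libraries gave p = 0.0286, the smallest value that 4 against 3 allows. With Phe11 replicates 6 and 20 counted as 1 sample the exact permutation p of this locus, of tRNA-Phe-GAA-2-1 and of the sum over the 7 tRNA-Phe loci was 0.1, the smallest value that 3 against 3 allows.

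tRNA-Phe-GAA-2-1, the gene missing in the other line, was a locus of low accessibility where it was intact. It was at 4.01, 2.67, 5.72 and 3.22 scaled reads in Phe11 replicates 4, 6, 20 and 21, which rest on 3, 2, 5 and 6 reads. In the Phe21 livers it had 1 read in replicate 7 and 0 reads in replicates 8 and 9, where a count of 0 allows up to 3 reads. The groups did not overlap, and the exact two-sided permutation test gave p = 0.0286, again the smallest possible, with a difference of 1.99 on the log2(scaled reads + 1) scale. At so low a level this difference follows the pseudocount and was 4.25 with a pseudocount of 0.1 and 0.44 with 10, at the same exact permutation p. Over all reads the level in Phe21 was 8.12% of that in Phe11, with a 95% exact interval of 0.194% to 52.3%, so the size of the loss is poorly set at this depth. The locus lay under the level of 10 mean scaled reads required for the test across loci. Each deletion was thus seen at the labelled locus over its group. At tRNA-Phe-GAA-2-1 it could not be read in every single library, since the 3 reads that a count of 0 allows stand for 2.81 and 3.67 scaled reads in Phe21 replicates 8 and 9, within the range of the Phe11 livers. The intact tRNA-Phe-GAA-1-1 locus carried 40.2 scaled reads on average over the 3 Phe21 livers, and the intact tRNA-Phe-GAA-2-1 locus 3.90 over the 4 Phe11 livers.

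Of the 5 tRNA-Phe loci intact in both lines, 0 were called in limma, a number that says little beside 22.0% of all loci tested. tRNA-Phe-GAA-1-5 had the most reads of the family, at 77.5, 70.7, 66.3 and 74.5 scaled reads in Phe11 replicates 4, 6, 20 and 21 and at 69.0, 82.4 and 70.97 in Phe21 replicates 7, 8 and 9. tRNA-Phe-GAA-1-4 was at 33.8 to 48.1 in Phe11 and 35.6 to 40.4 in Phe21, and tRNA-Phe-GAA-1-3 at 28.1 to 37.4 and 29.4 to 38.4. tRNA-Phe-GAA-1-2 was at 21.4 to 31.6 in Phe11 and at 20.3 to 34.3 in Phe21. The ranges of these 4 copies overlapped between the lines. Their log2 differences lay between -0.08 and 0.08 with standard errors of 0.14 to 0.22, the limma adjusted p was 0.828 to 0.907, and each of the 4 differences changed sign under at least 1 other setting.

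tRNA-Phe-GAA-3-1 had the widest spread of the family. It was at 17.4, 41.4, 28.6 and 30.6 scaled reads in Phe11 replicates 4, 6, 20 and 21 and at 23.95, 11.2 and 24.5 in Phe21 replicates 7, 8 and 9, and the groups overlapped through Phe11 replicate 4. The log2 difference was 0.56 (SE 0.24) with a limma adjusted p of 0.0849. The call depended on single libraries and on the scaling. The locus passed the threshold without Phe11 replicate 4, without Phe21 replicate 7, without Phe21 replicate 9, or with library totals made equal, and its adjusted p was 0.328 in batch 1 alone.

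Summed over the 7 tRNA-Phe loci, Phe11 livers were at 210, 215, 215 and 204 scaled reads in replicates 4, 6, 20 and 21 and Phe21 livers at 230, 241 and 239 in replicates 7, 8 and 9. Every Phe11 liver lay below every Phe21 liver. The log2 difference was -0.16, and the exact two-sided permutation test gave p = 0.0286, the smallest value possible. With library totals made equal the groups still did not overlap, but the difference was -0.078 at the same exact permutation p. This sum holds both deleted loci. Where intact, tRNA-Phe-GAA-1-1 averaged 40.2 scaled reads over the Phe21 livers and tRNA-Phe-GAA-2-1 3.90 over the Phe11 livers. The deletions thus set the sum lower in Phe11 by construction, so the test says nothing of the other copies. Over the 5 intact loci alone the sums were 202, 208, 202 and 199 in Phe11 and 187, 201 and 199 in Phe21. These overlapped, with a log2 difference of 0.05 and p = 0.114 in the exact two-sided permutation test. With library totals made equal this second difference became 0.14 and the groups separated (exact permutation p = 0.0286), so its reading depends on the scaling. tRNA-Phe-GAA-1-1 made up 18.3%, 16.3% and 16.4% of the family's reads in Phe21 replicates 7, 8 and 9. In Phe11 replicates 4, 6, 20 and 21, where it is deleted, it made up 1.91%, 1.86%, 3.19% and 0.787%. tRNA-Phe-GAA-1-5 made up 30.0%, 34.2% and 29.7% in these Phe21 livers and 36.9%, 32.9%, 30.9% and 36.5% in these Phe11 livers, which overlapped.

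**Figure D2:**
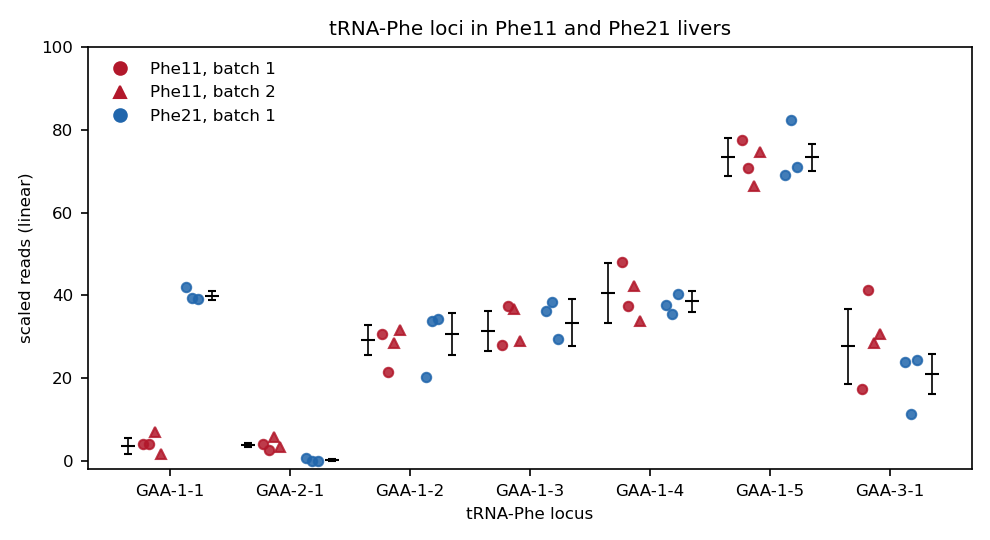
Scaled reads (linear axis) at the 7 tRNA-Phe loci in each liver, with circles for batch 1 and triangles for batch 2, red for Phe11 and blue for Phe21. Black bars give the mean ± SD, n = 3 for Phe11 and n = 2 for Phe21 after close pairs were averaged. tRNA-Phe-GAA-1-1 lies between 1.61 and 6.86 in Phe11 and between 39.2 and 42.1 in Phe21.

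The second question was how far the lines differ at the other tRNA loci. Of 214 loci tested with limma, 47 were called at an adjusted p under 0.05 (22.0% of the loci tested), 23 higher in Phe11 (10.7%) and 24 lower (11.2%), and the median difference over all loci tested was -0.07 on the log2 scale. The groups did not overlap at 65 of the 214 loci (30.4%), 25 with Phe11 above (11.7%) and 40 with Phe11 below (18.7%), and 44 of the 47 called loci were among them. The quasi-likelihood test of edgeR on the whole reads called 49 loci (22.9%), 24 higher (11.2%) and 25 lower (11.7%), of which 45 were shared with limma, and DESeq2 called 26 (12.1%), 10 higher (4.67%) and 16 lower (7.48%), all 26 shared. With both close pairs averaged, limma called 32 loci, 31 of them shared. In a fit with batch as a term 33 were called (15.4%), 12 higher (5.61%) and 21 lower (9.81%), 30 of them shared, and in batch 1 alone, 2 against 3 livers, 31 of 207 loci (15.0%), 10 higher (4.83%) and 21 lower (10.1%), 27 of them shared. The share of higher calls, 48.9%, moved with the setting, to 59.6% with equal library totals (28 of 47), to 65.5% with a scaling that follows the level (19 of 29) and to 25.9% among loci with a mean of at least 30 scaled reads (7 of 27). All 47 called loci kept the sign of their difference in the 22 other settings that tested them, and 16 of them, 7 higher and 9 lower, stayed past the threshold in each of those settings.

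The lower calls were led by 5 loci with log2 differences of -3.11 to -1.91, where the next largest was -0.87. They were tRNA-Phe-GAA-1-1 itself, 2 alanine loci with the anticodon TGC and 2 aspartate loci with the anticodon GTC. tRNA-Asp-GTC-1-7, an aspartate tRNA gene and the strongest of the 5 in Phe21 livers, was at 24.1, 17.3, 16.01 and 15.0 scaled reads in Phe11 replicates 4, 6, 20 and 21 and at 109, 121 and 120 in Phe21 replicates 7, 8 and 9. The means were 18.1 ± 4.09 (SD, n = 4) and 117 ± 6.65 (SD, n = 3), and the log2 difference was -2.64 (SE 0.19, limma adjusted p = 8.78e-39). The groups were separated by a wide gap.

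tRNA-Ala-TGC-4-1, an alanine tRNA gene, was at 8.02, 12.0, 6.86 and 7.51 scaled reads in Phe11 replicates 4, 6, 20 and 21 and at 64.6, 67.4 and 52.6 in Phe21 replicates 7, 8 and 9. The log2 difference was -2.72 (SE 0.27, limma adjusted p = 1.12e-21). Every Phe11 liver was below every Phe21 liver by a wide margin. tRNA-Ala-TGC-2-1, another alanine gene of the same anticodon, was at 4.01, 4.00, 4.57 and 2.68 in Phe11 and at 27.6, 17.8 and 28.1 in Phe21, with a log2 difference of -2.39 (SE 0.40, limma adjusted p = 1.41e-07). tRNA-Asp-GTC-1-6 was at 10.7, 6.67, 5.72 and 1.61 in Phe11 and at 23.95, 19.7 and 24.5 in Phe21, with a log2 difference of -1.91 (SE 0.37, limma adjusted p = 6.92e-06). Within Phe11, replicate 4 lay highest and replicate 21 lowest at this last locus. With both close pairs averaged the adjusted p of the 5 loci was between 4.26e-07 and 0.0154, and in batch 1 alone between 7.71e-34 and 0.00404.

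RefSeq annotation of GRCm38.p6 shows the surroundings of the tRNA-Phe-GAA-1-1 gene on chromosome 5. Within 5000 bases on either side it lists 4 other tRNA genes, 2 for alanine with the anticodon TGC and 2 for aspartate with the anticodon GTC. Their distances from tRNA-Phe-GAA-1-1 were 376 and 2888 bases for the aspartate genes and 1733 and 3344 bases for the alanine genes. RefSeq holds 11 alanine TGC genes, 2 of them on chromosome 5, and 16 aspartate GTC genes, 3 of them on chromosome 5. The counts and kinds of these neighbours are those of the other 4 loci above, and the study describes tRNA-Ala-TGC-2-1 and alanine and aspartate loci in the surroundings of tRNA-Phe-GAA-1-1. The coordinates used here carry RefSeq names only, so which RefSeq gene is which of the 4 loci was not determined.

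Other members of the same families varied in direction and size. Of the 7 tested copies of isodecoder tRNA-Asp-GTC-1, the 2 above and tRNA-Asp-GTC-1-13 were called lower, beside 11.2% of all loci tested, and 4 were not called. tRNA-Asp-GTC-1-13 was at 53.5, 66.7, 73.2 and 74.0 scaled reads in Phe11 and at 87.1, 92.7 and 106 in Phe21 (log2 difference -0.51, SE 0.14, limma adjusted p = 0.00237), a call that was lost in 4 of 22 settings, among them without Phe21 replicate 9 and under a scaling that follows the level of the loci (cyclic loess, adjusted p = 0.0657). This locus was named after its values were seen. tRNA-Asp-GTC-1-5 was at 41.8 to 61.4 in Phe11 and 50.2 to 55.9 in Phe21 and was not called (-0.18, SE 0.17, limma adjusted p = 0.495). The 4 tested alanine TGC genes were called in both directions. tRNA-Ala-TGC-3-1 was at 81.5, 66.7, 65.2 and 74.0 in Phe11 and at 110, 112 and 109 in Phe21 (log2 difference -0.62, SE 0.13, limma adjusted p = 6.42e-05), while tRNA-Ala-TGC-1-1 was at 16.04, 16.01, 18.3 and 16.1 in Phe11 and at 10.2, 3.75 and 4.89 in Phe21 (1.37, SE 0.36, limma adjusted p = 0.00157). The higher value of tRNA-Ala-TGC-1-1 was no longer called with that scaling (adjusted p = 0.150). tRNA-Ala-TGC-1-1 reached the level required for the test only through the Phe11 livers. tRNA-Ala-TGC-2-1, tRNA-Ala-TGC-4-1 and tRNA-Asp-GTC-1-6 did so only through the Phe21 livers, so the family counts here are a description.

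The lower calls beyond these were smaller. tRNA-Trp-CCA-3-1, a tryptophan tRNA gene, was at 85.6, 54.7, 60.6 and 67.5 scaled reads in Phe11 and at 102, 107 and 115 in Phe21, with a log2 difference of -0.70 (SE 0.14, limma adjusted p = 7.69e-06). tRNA-Asn-GTT-3-7, an asparagine tRNA gene, was at 135, 147, 138 and 152 in Phe11 and at 203, 237 and 208 in Phe21, with a log2 difference of -0.59 (SE 0.10, limma adjusted p = 5.23e-07). Both kept their call in every setting that was run. tRNA-Tyr-GTA-2-1, among the most accessible tyrosine loci, was at 183, 226, 184 and 210 in Phe11 and at 278, 257 and 310 in Phe21 and was also called in each setting, with a log2 difference of -0.49 (SE 0.09, limma adjusted p = 5.15e-06); it was named after its values were seen. tRNA-Val-AAC-5-1, a valine gene, was at 53.4 to 60.6 in Phe11 and 74.0 to 89.3 in Phe21 (-0.53, SE 0.15, limma adjusted p = 0.00369), and lost its call without Phe21 replicate 7 (leave-one-out) and under the scaling that follows the level (adjusted p = 0.0623). tRNA-Glu-CTC-1-6, a glutamate gene, was at 8.01 to 13.4 in Phe11 and 17.1 to 25.3 in Phe21 (-0.87, SE 0.32, limma adjusted p = 0.0310). Its call was lost in 11 of the 21 settings that tested it, among them without Phe11 replicate 6 or 20, without Phe21 replicate 7 or 8, and with batch as a term.

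**Figure D3:**
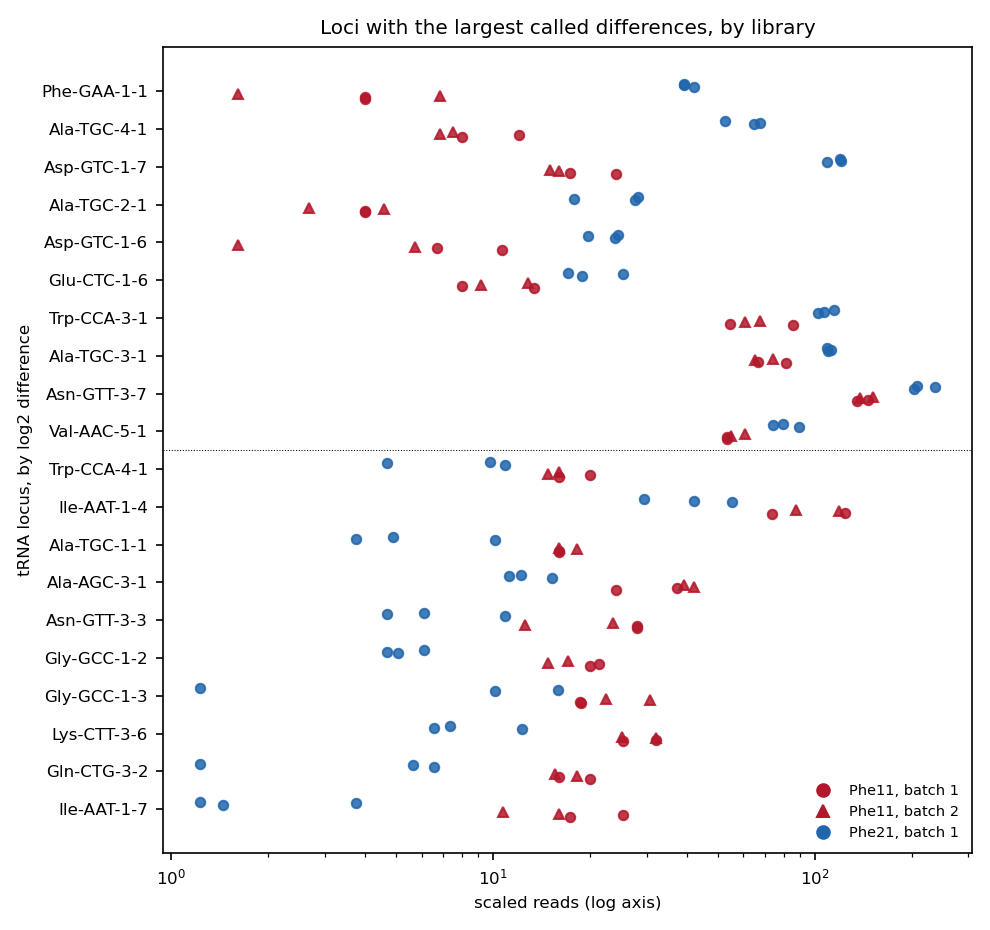
Scaled reads (log axis) in each liver at the 10 loci with the largest called differences in each direction, ordered by log2 difference, with circles for batch 1, triangles for batch 2, red for Phe11 and blue for Phe21. Loci above the dotted line were lower in Phe11 and loci below it higher, and the groups did not overlap at these 20 loci.

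The higher calls were led by loci of low accessibility. At 8 of the 23 the Phe21 livers averaged under 10 scaled reads, so that the locus reached the level required for the test only through the Phe11 livers, and their p-values are conditional on that. They were tRNA-Ile-AAT-1-7, tRNA-Gln-CTG-3-2, tRNA-Lys-CTT-3-6, tRNA-Gly-GCC-1-3, tRNA-Gly-GCC-1-2, tRNA-Asn-GTT-3-3, tRNA-Ala-TGC-1-1 and tRNA-Trp-CCA-4-1. Among the lower calls the same held in the other direction for 4 of 24, tRNA-Phe-GAA-1-1, tRNA-Ala-TGC-4-1, tRNA-Ala-TGC-2-1 and tRNA-Asp-GTC-1-6. tRNA-Ile-AAT-1-7, an isoleucine tRNA gene of this kind, was at 17.4, 25.4, 16.01 and 10.7 scaled reads in Phe11 replicates 4, 6, 20 and 21 and at 1.45, 3.75 and 1.22 in Phe21 replicates 7, 8 and 9. The log2 difference was 2.58 (SE 0.44, limma adjusted p = 2.10e-07). The Phe21 values rest on 2, 4 and 1 reads. A second copy with the same mature sequence, tRNA-Ile-AAT-1-4, was far more accessible, at 73.5, 124, 119 and 87.4 in Phe11 and at 55.2, 42.1 and 29.4 in Phe21, with a log2 difference of 1.25 (SE 0.15, limma adjusted p = 6.63e-15). Of the 8 copies of isodecoder tRNA-Ile-AAT-1, all tested, 3 were called higher and 0 lower, beside 10.7% and 11.2% of all loci tested, with differences from -0.05 to 2.58 and a median of 0.39. The estimates of these copies of 1 sequence varied, but no test compared the copies with each other. tRNA-Ile-AAT-1-7 reached the test only through the Phe11 livers. The third call, at tRNA-Ile-AAT-1-5, a locus named after its values were seen, was lost in 8 of 22 settings. Reads inside the gene do not separate the copies.

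Glycine loci with the anticodon GCC showed a similar picture. The 3 copies of isodecoder tRNA-Gly-GCC-1 were called higher in Phe11, but 2 of them, tRNA-Gly-GCC-1-2 and tRNA-Gly-GCC-1-3, reached the test only through the Phe11 livers, so that nothing is read from the number beside 10.7% of all loci tested. tRNA-Gly-GCC-1-2 was at 20.1, 21.4, 14.9 and 17.2 scaled reads in Phe11 and at 5.08, 4.68 and 6.12 in Phe21 (log2 difference 1.61, SE 0.36, limma adjusted p = 9.51e-05). tRNA-Gly-GCC-1-3 was at 18.7, 18.7, 30.9 and 22.5 in Phe11 and at 10.2, 15.9 and 1.22 in Phe21 (1.63, SE 0.33, limma adjusted p = 9.65e-06), and its call was lost without Phe21 replicate 9, the lowest library. tRNA-Gly-GCC-1-1, named after its values were seen, was at 22.7 to 37.4 in Phe11 and 11.01 to 26.1 in Phe21, which overlapped (0.69, SE 0.25, limma adjusted p = 0.0264). That call was lost in 13 of the 21 settings that tested it, among them without Phe11 replicate 6 or 20 and without Phe21 replicate 8 or 9. Of the 9 tested glycine GCC loci these 3 were called, and the median difference of the 9 was 0.60 with 1 size factor per library and 0.23 under the scaling that follows the level.

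tRNA-Lys-CTT-3-6, a lysine tRNA gene, was at 25.4, 32.0, 32.0 and 25.2 scaled reads in Phe11 and at 12.3, 6.56 and 7.34 in Phe21. The log2 difference was 1.64 (SE 0.29, limma adjusted p = 3.91e-07), and the call held in the 21 settings that tested the locus. The locus reached the level required for the test only through the Phe11 livers, so these calls are conditional on that. tRNA-Lys-CTT-3-6 was the single lysine locus called of 13 tested, beside 22.0% of all loci tested, and nothing is read from this count. RefSeq lists 6 other tRNA genes within 5000 bases of the gene paired with tRNA-Phe-GAA-2-1 on chromosome 19, of which 2, at 1078 and 2433 bases, are lysine genes with the anticodon CTT, out of 24 such genes in all. Whether tRNA-Lys-CTT-3-6 is 1 of those 2 was not tested, since the names are not paired in the sources used here.

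Further loci were higher in Phe11. tRNA-Ala-AGC-3-1, an alanine gene, was at 24.1, 37.4, 42.3 and 39.1 scaled reads in Phe11 and at 15.2, 11.2 and 12.2 in Phe21 (log2 difference 1.38, SE 0.25, limma adjusted p = 7.76e-07). tRNA-Gln-CTG-3-2, a glutamine gene, was at 20.1, 16.01, 18.3 and 15.5 in Phe11 and at 6.53, 5.62 and 1.22 in Phe21 (1.94, SE 0.39, limma adjusted p = 9.65e-06). Both calls held in each setting that tested the locus. tRNA-Gln-CTG-3-2 reached the level required for the test only through the Phe11 livers, so its calls are conditional on that. tRNA-Asn-GTT-3-3, an asparagine gene of the same isodecoder as the lower tRNA-Asn-GTT-3-7, was at 28.1, 28.03, 12.6 and 23.6 in Phe11 and at 10.9, 4.68 and 6.12 in Phe21 (1.56, SE 0.32, limma adjusted p = 2.28e-05). tRNA-Trp-CCA-4-1, a tryptophan gene, was at 16.04, 20.02, 14.9 and 16.1 in Phe11 and at 10.9, 4.68 and 9.79 in Phe21 (0.97, SE 0.34, limma adjusted p = 0.0237). Asparagine, with 7 loci tested, and tryptophan, with 6, each had 1 locus called in each direction, beside 10.7% higher and 11.2% lower over all loci tested. The higher locus of each reached the test only through the Phe11 livers, so nothing is read from these counts. The tryptophan call was lost in 8 of the 21 settings that tested it, among them without Phe11 replicate 6, without Phe21 replicate 8 and with batch as a term (adjusted p = 0.0673). tRNA-Leu-CAA-1-1, a leucine gene named after its values were seen, was at 71.8 to 98.3 in Phe11 and 34.3 to 57.1 in Phe21 (0.88, SE 0.15, limma adjusted p = 3.86e-07) and was called in each setting.

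Of the loci that earlier comparisons of these data had singled out, tRNA-Leu-TAG-2-1 was at 38.8, 61.4, 51.4 and 46.1 scaled reads in Phe11 and at 38.5, 38.4 and 24.5 in Phe21 (log2 difference 0.55, SE 0.19, limma adjusted p = 0.0201). The call was lost in 9 of 22 settings, among them without Phe11 replicate 6 or 20, without Phe21 replicate 9, in batch 1 alone (adjusted p = 0.123) and with batch as a term (adjusted p = 0.0851). tRNA-Ser-GCT-3-1, a serine gene, was at 31.1 to 37.4 in Phe11 and 14.7 to 27.2 in Phe21 (0.70, SE 0.23, limma adjusted p = 0.0140), and lost its call in 5 of 21 settings, among them without Phe11 replicate 6 or Phe21 replicate 9 and in batch 1 alone (adjusted p = 0.0748). tRNA-Pro-CGG-1-1 was at 44.1 to 56.0 in Phe11 and 57.5 to 69.7 in Phe21 and was not called (-0.38, SE 0.16, limma adjusted p = 0.0770), and tRNA-Lys-TTT-1-2 was not called either (0.67, SE 0.36, limma adjusted p = 0.170).

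With 1 size factor per library, the differences varied with how accessible a locus was. Among the 72 loci of lowest mean level, 10.5 to 30.9 scaled reads, 16 were called higher in Phe11 and 4 lower, with a median log2 difference of 0.18. Among the 71 loci of highest mean level, 63.2 to 267 scaled reads, 4 were called higher and 18 lower, with a median of -0.19. Of the 16 higher calls at low level, 8 are the loci that reached the required level only through the Phe11 livers, so these counts are a description. The libraries differed in the same way as a whole. The 187 loci under the level required for the test held 3.84% to 4.10% of the reads in the 4 Phe11 livers and 1.89% to 2.07% in the 3 Phe21 livers, and the 10 strongest loci of each library held 14.7% to 16.1% and 16.8% to 18.1%. Neither range overlapped, and the Phe11 values included both batches. The part of this shift in the calls at single loci was not tested. After scaling that follows the level (cyclic loess), the medians of these 72 and 71 loci were 0.03 and -0.00. The lowest 72 then held 9 higher and 4 lower calls and the highest 71 held 7 higher and 4 lower, so the excess of lower calls at high level turned over with the scaling. In all, 29 loci were called (13.6%), 19 higher (8.88%) and 10 lower (4.67%), of which 26 were shared with the fit above. At the 5 loci of largest loss the log2 differences under it were -3.71 at tRNA-Phe-GAA-1-1, -2.91 at tRNA-Ala-TGC-4-1, -2.63 at tRNA-Asp-GTC-1-7, -3.16 at tRNA-Ala-TGC-2-1 and -2.56 at tRNA-Asp-GTC-1-6. In these bulk nuclei a lower value may come from fewer cells with an open locus or from less cutting per cell, which cannot be told apart.

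**Figure D4:**
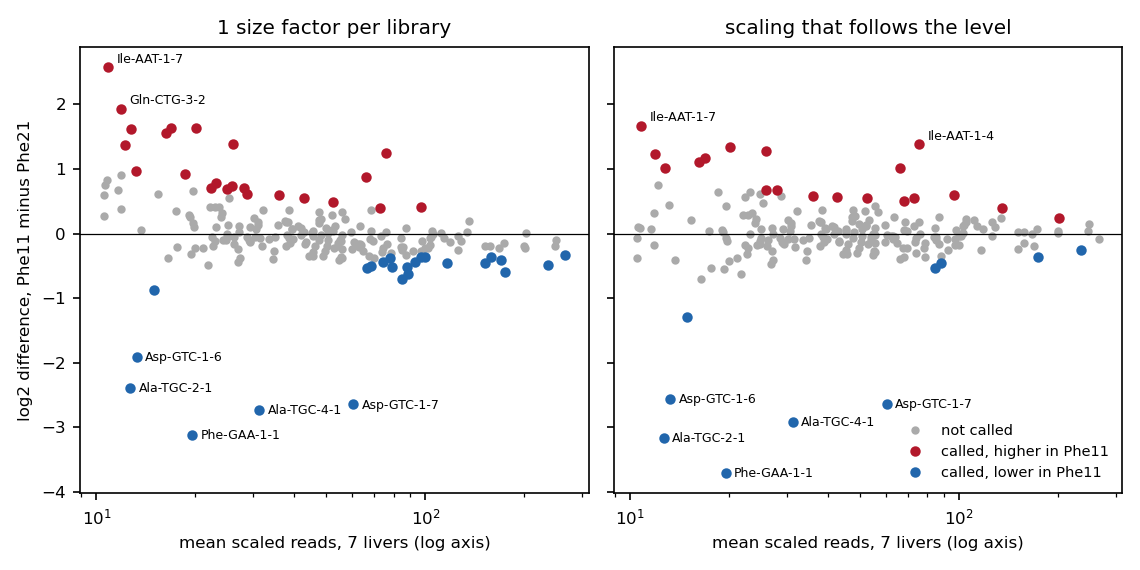
Log2 difference, Phe11 minus Phe21, against the mean scaled reads of the 7 livers (log axis) for the 214 loci tested, with 1 size factor per library (left) and with a scaling that follows the level (right). Red points were called higher in Phe11, blue points lower and grey points were not called, and on the left 16 of the 23 red points fall among the 72 loci of lowest level.

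By amino acid, 20 of the 22 groups of loci, with initiator and elongator methionine apart and selenocysteine included, held at least 1 called locus, and 7 held calls in both directions. Counts by amino acid are to be read beside 10.7% of all loci tested called higher and 11.2% called lower. Histidine loci had 3 of 5 called lower and 0 higher with a median log2 difference of -0.36, and aspartate loci 3 of 8 called lower and 0 higher with a median of -0.29, beside -0.07 for all loci tested. Of the 22 other settings, the histidine call was lost in 12 at tRNA-His-GTG-2-7, 7 at tRNA-His-GTG-2-1 and 2 at tRNA-His-GTG-2-2. These histidine loci were named after their values were seen. Glycine loci had 3 of 15 called higher and 0 lower with a median of 0.32, isoleucine loci 3 higher and 1 lower of 10 with a median of 0.23, and leucine loci 3 higher and 0 lower of 19 with a median of -0.11. Among these calls, tRNA-Gly-GCC-1-2, tRNA-Gly-GCC-1-3 and tRNA-Ile-AAT-1-7 reached the test only through the Phe11 livers. The call of tRNA-Asp-GTC-1-6 did so only through the Phe21 livers. The glycine, isoleucine and aspartate counts are therefore a description only. Cysteine, with 54 loci of which 6 were tested, and selenocysteine had 0 calls in limma. Initiator methionine loci, which supply the tRNA that starts translation, had 1 of 5 called lower, and elongator methionine loci also 1 of 5. The median of glycine loci fell to -0.00 under the scaling that follows the level, and that of histidine and aspartate loci remained below 0 at -0.17 and -0.31.

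Summed over all loci of an amino acid, tested or not, aspartate was furthest from equal. Its 16 loci held 309 to 348 scaled reads in Phe11 livers and 470 to 499 in Phe21 livers, so that the mean of the 4 Phe11 livers was 66.6% of that of the 3 Phe21 livers. Without tRNA-Asp-GTC-1-6 and tRNA-Asp-GTC-1-7 the other 14 loci held 274 to 324 and 337 to 355, or 86.3%. The 33 alanine loci stood at 92.5%, and at 101% without tRNA-Ala-TGC-2-1 and tRNA-Ala-TGC-4-1, with overlapping ranges. Tryptophan stood at 84.3%, histidine at 84.6%, asparagine at 86.0% and tyrosine at 87.6%. With the close pairs averaged these values were 83.8%, 81.9%, 86.1% and 84.0% and that of aspartate 65.2%, so the order of the 4 depends on how the livers are counted. Of these, aspartate, histidine and tryptophan also did not overlap with library totals made equal (70.7%, 89.8% and 89.6%), whereas tyrosine and asparagine then overlapped. Phenylalanine, with its 2 deleted loci included, stood at 89.2% and glycine highest at 114%. The 5 tRNA-Phe loci intact in both lines stood at 104% with overlapping ranges, and at 110% without overlap when library totals were made equal. The groups did not overlap for 12 of the 22 sums, 10 of them lower in Phe11 and 2 higher. The balance depended on the scaling, since with equal library totals 9 sums did not overlap, 4 of them lower (aspartate, histidine, tryptophan and phenylalanine) and 5 higher (leucine, isoleucine, lysine, glutamine and glycine).

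**Figure D5:**
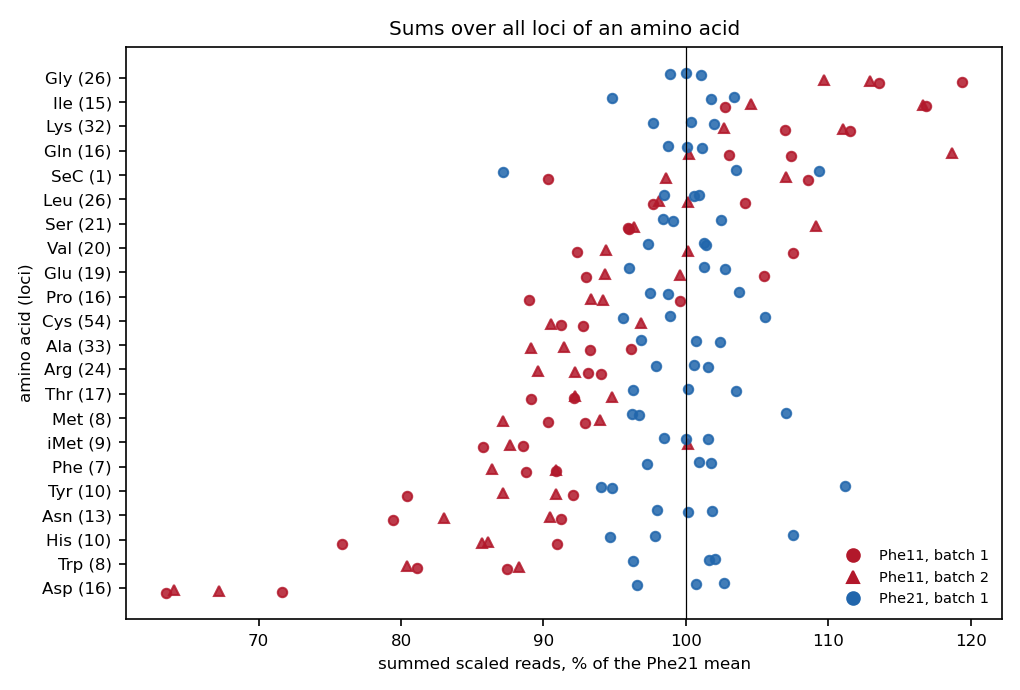
Sums of scaled reads over all loci of each amino acid in each liver, as a percentage of the mean of the Phe21 livers, ordered by the mean of the Phe11 livers. The number of loci is in brackets, circles are batch 1, triangles batch 2, red Phe11 and blue Phe21, and aspartate lies lowest with the mean of the 4 Phe11 livers at 66.6%.

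All Phe21 livers belonged to batch 1, so the 2 batches were compared within Phe11. With batch as a term limma called 0 of 214 loci (0.0%) between Phe11 livers of batch 2 and batch 1, 14 loci had an unadjusted p under 0.05, and edgeR also called 0. Batch differences had an SD of 0.27 over the loci tested on the log2 scale and line differences an SD of 0.62. The close pair, Phe11 replicates 6 and 20, spans the 2 batches, so these values rest in part on libraries that may not be independent. Without Phe11 replicate 6 the fit called 3 loci, 1 higher and 2 lower in batch 2, with 26 at an unadjusted p under 0.05, and without replicate 20 it called 0, with 12. With 2 livers in each batch a batch effect of the size of the smaller line differences may not be detectable. At the 5 loci of large loss each batch gave the same direction, and the 2 Phe11 livers of batch 1 lay below the Phe21 livers of that batch at each of them.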

How the data were processed

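Groups and batches were taken from the labels. The authors trimmed the reads with Trim Galore 0.6.4, used Bowtie2 2.4.1 for alignment to GRCm38.p6, removed duplicates with Picard 2.23.8, kept short nucleosome-free fragments and counted read pairs over each high-confidence tRNA gene and a short flank with featureCounts 2.0.0. SAMtools 1.10 removed alignments of low quality, which may drop or misplace read pairs within near-identical copies. The deposited signal is that count divided by a size factor the authors estimated with DESeq2 within each knockout against wild-type table. Each column was divided by its smallest value above 0 and rounded, which gave whole numbers for 100% of values within 1e-06. The number of columns of no known sample was 0. The authors' own fold changes and peak lists were not used here.

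Reads of the 7 livers were joined on locus and scaled anew by the median ratio over the 257 loci with reads in all of them. Loci with a mean of at least 10 scaled reads were tested with limma 3.58.1 in R 4.3.3 on log2(scaled reads + 1) with a trend, two-sided, without a batch term, with Benjamini-Hochberg adjustment over the 214 loci and a threshold of 0.05. The fit found no excess spread between loci beyond the trend, so its prior degrees of freedom were infinite and its smallest p-values rest on that. The deleted loci and the sums were compared by exact two-sided permutation tests. Each of these choices was then changed: the pseudocount (0.1, 10), the filter (none, mean 30), and the scaling (TMM without the tRNA-Phe loci, equal totals, cyclic loess). Further settings were no trend, edgeR 4.0.16, DESeq2 1.42.0, a batch term, each batch of Phe11 livers alone, each library left out and, added after seeing the data, close pairs averaged. Intervals cover counting error only. Means ± SD are of scaled reads, with close pairs averaged where n is 3 for Phe11 and 2 for Phe21.

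Named loci were the 7 tRNA-Phe loci, 10 loci named in earlier comparisons and the 10 largest called differences in each direction, and those outside this rule are marked. These members and lists were chosen with earlier results of these data known. Sequences come from GRCm39 and the guide and deletion from the study's supplementary data. RefSeq positions are on GRCm38.p6, which is also the authors' build.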

Additional observations from a re-analysis of the deposited data

Results flagged for a closer look

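Among the 4 Phe11 livers, tRNA-Ala-TGC-1-1 had 1 library apart from the others. Replicate 20 was at 18.3 scaled reads and the other three between 16.01 and 16.1, so that its gap to the nearest took 0.97 of the whole range, above the 95% limit of Dixon's test for 4 samples. The range itself is small beside the difference from the Phe21 livers. Of the 33 sets of 4 values looked at in this way this was the only 1 past the limit, and chance gives about 1 in 20.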

How the results depend on the processing

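No paired analysis was possible because the compared groups share no sample number. The 47 calls became 27 with a mean of at least 30 scaled reads (146 loci tested), 29 with cyclic loess, 29 without the trend, 26 with DESeq2 and 31 in batch 1 alone, and leaving out 1 library gave 34 to 54. Of the calls 48.9% were higher in Phe11, against 59.6% with equal totals (28 of 47), 65.5% with cyclic loess (19 of 29), 64.7% with no filter (44 of 68), 25.9% with a mean of at least 30 (7 of 27), 32.3% in batch 1 alone (10 of 31), 36.4% with a batch term (12 of 33) and 38.5% with DESeq2 (10 of 26). The batch count of 0 became 3 without Phe11 replicate 6. For tRNA-Phe-GAA-1-1 the log2 difference was -3.04 in batch 1 alone, -3.19 with the batch 2 livers, -3.23 with Phe11 replicates 6 and 20 averaged, -3.22 with both close pairs averaged and -3.35 to -2.82 with 1 library left out. For tRNA-Phe-GAA-2-1 these values were 1.84, 2.15, 2.00, 2.04 and 1.83 to 2.26, and for the sum of the 7 tRNA-Phe loci -0.15, -0.17, -0.17, -0.18 and -0.18 to -0.15, with -0.078 under equal totals. Pseudocounts of 0.1 and 10 gave -3.42 and -1.84 at tRNA-Phe-GAA-1-1 and 4.25 and 0.44 at tRNA-Phe-GAA-2-1. In these smaller sets the exact permutation test cannot go below 0.1, or 0.0667 for 4 against 2, and gave that smallest value each time. The sum of the 5 intact loci passed the threshold with equal totals (0.14). Near 0, tRNA-Phe-GAA-1-2 turned to 0.039 with equal totals, 0.024 with edgeR, 0.078 with the batch 2 livers and 0.014 with Phe11 replicates 6 and 20 averaged, and was -0.29 to 0.080 with 1 library left out. tRNA-Phe-GAA-1-3 turned to 0.000324 with equal totals and tRNA-Phe-GAA-1-4 to -0.00965 without Phe11 replicate 4, in a range up to 0.17 over the libraries left out. tRNA-Phe-GAA-1-5 turned to 0.051 with equal totals, 0.11 with cyclic loess, 0.0032 with a batch term, 0.00259 with both close pairs averaged and was -0.093 to 0.023 with 1 library left out. The cause of these changes was not tested. For the named loci, 577 values kept direction and call, 40 lost the call, 4 gained it and 15 changed sign. The averaged pairs were chosen after seeing the data. A mean of 33.7 reads per locus and library in Phe11 and 36.7 in Phe21 limits what smaller differences can be seen, and 187 loci were not tested.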
